A study of Homo sapiens with 18 samples.

Results

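The 10 genes described here control the G1 phase of the cell cycle. They were chosen by name: the D-type cyclins CCND2 and CCND3, their kinases CDK4 and CDK6, the CDK inhibitors CDKN1B, CDKN2C and CDKN2D, the pocket proteins RB1 and RBL2, and the transcription factor E2F1. All 10 were listed and tested in both cell lines, where HL-60 listed 17110 genes and MOLM-13 17475. HL-60 is a promyelocytic and MOLM-13 a monocytic acute myeloid leukaemia line, and both were kept in RPMI1640 medium with serum. Each line was treated for 48 h with the solvent DMSO, with decitabine (DAC, a cytidine analogue that enters DNA and traps DNA methyltransferases) or with NTX-301, an experimental DNA methyltransferase inhibitor. Each of the 6 groups held 3 wells, which gave 18 samples. The labelled concentration was 30 nM in HL-60 but 15 nM in MOLM-13, in wording that may refer to DAC alone or to both drugs, so dose and line cannot be told apart and the doses of the drugs may not match. All 8 myeloid markers checked, among them MPO, ELANE and SPI1, were listed in both lines. HOXA9 and MEIS1, typical of KMT2A-rearranged leukaemia, were listed for MOLM-13 alone, while HOXA10 and FLT3, from the same marker list, were listed in both lines. Of 14 markers of other lineages, HL-60 listed 3 and MOLM-13 listed 7, and none of those lists held more than 0.0144% of a sample's linear sum.

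In G1, growth signals induce D-type cyclins, which activate CDK4 and CDK6. These kinases phosphorylate RB1, which then releases E2F transcription factors, and E2F turns on cyclin E, DNA replication genes and its own gene. The INK4 inhibitors, here p18 (CDKN2C) and p19 (CDKN2D), block CDK4 and CDK6, while p27 (CDKN1B) mainly holds back CDK2. RBL2 encodes p130, which represses cell cycle genes in resting cells as part of the DREAM complex. In blood cells CDK6, CCND2 and CCND3 are the usual G1 pair partners, and CDK6 also helps to block myeloid maturation.

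The RefSeq table (GRCh38.p14) held 15 promoter windows for 9 of the 10 genes, each from 250 bases before to 50 bases after an annotated start site. CCND2 had none, and the window of RB1 lay at a start site inside the gene. The windows were searched on both strands for the E2F motif, spelled TTTCCCGC, TTTCGCGC, TTTGCCGC or TTTGGCGC. It was found in 1164 of 35116 windows of this length in the whole table (3.31%), and among these 15 windows in that of E2F1 alone. The 250 bases before the start site are shown for CDK4, CDKN2D and E2F1, the genes with a single window whose transcripts were lower with both drugs in MOLM-13 (below). All lie on the minus strand, at chr12:57752311-57752560, chr19:10568980-10569229 and chr20:33686386-33686635, and read 5′ to 3′ with E2F motif matches in capitals.
CDK4: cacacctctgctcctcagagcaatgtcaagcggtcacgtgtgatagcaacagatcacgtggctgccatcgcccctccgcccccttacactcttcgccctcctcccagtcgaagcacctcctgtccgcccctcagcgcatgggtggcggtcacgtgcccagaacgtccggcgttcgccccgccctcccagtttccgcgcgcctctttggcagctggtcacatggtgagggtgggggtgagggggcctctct
CDKN2D: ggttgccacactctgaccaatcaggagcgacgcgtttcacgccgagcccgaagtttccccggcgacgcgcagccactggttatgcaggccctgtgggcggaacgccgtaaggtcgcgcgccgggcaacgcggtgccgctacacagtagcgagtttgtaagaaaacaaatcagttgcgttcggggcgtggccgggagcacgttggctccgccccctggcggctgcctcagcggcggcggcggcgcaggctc
E2F1: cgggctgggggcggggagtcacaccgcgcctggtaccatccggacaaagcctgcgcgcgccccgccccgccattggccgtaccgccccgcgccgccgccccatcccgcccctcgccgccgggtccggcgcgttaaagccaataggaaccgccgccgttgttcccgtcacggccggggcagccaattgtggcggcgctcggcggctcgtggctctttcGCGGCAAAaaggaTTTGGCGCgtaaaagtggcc

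The matches in E2F1 begin 33 and 20 bases before the start site, the first on the opposite strand, and do not overlap. CpG dinucleotides, where DNA methyltransferases act, numbered 46 in the 300-base window of E2F1, 36 in that of CDKN2D and 23 in that of CDK4, against a median of 14 over all windows. The E2F1 window held more CpG than 97.1% of the windows in the table. Across the 8 genes with a window other than RB1, the richest window of each held 23 to 46 CpG, so such counts were not particular to the genes shown. The RB1 window, inside the gene, held 0. A match to these letters is a description and not evidence of binding, and DNA methylation was not measured.

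Values are given on the deposited log2 scale, on which a difference of 1 is a doubling, and a gene is called changed at a limma p-value under 0.05 after Benjamini-Hochberg adjustment over all genes tested. With NTX-301, HL-60 raised 6 of the 10 genes (CCND2, CCND3, CDKN1B, CDKN2C, CDKN2D and RB1) and lowered CDK4 and CDK6. MOLM-13 raised CCND2 alone with either drug and lowered CCND3, CDK4, CDKN2C, CDKN2D and E2F1 with both. With DAC, 4 genes rose (CCND2, CCND3, CDK6 and CDKN2D) and 1 fell (CDK4) in HL-60, while in MOLM-13 1 rose and 6 fell. Among all HL-60 genes, DAC raised 11.6% and lowered 12.6%, and NTX-301 raised 18.3% and lowered 19.2%. Among all MOLM-13 genes the shares were 15.4% and 21.2% for DAC and 20.3% and 24.8% for NTX-301. The median change of the 10 genes in HL-60 was 0.057 under DAC and 0.18 under NTX-301, and in MOLM-13 it was −0.10 and −0.071. The median of all genes lay within 0.00336 of 0 in each comparison. The changes were small: the largest among the 10 was a 1.52-fold rise, in CCND3. In bulk RNA, a shift in how many cells carry a transcript and a shift in its amount per cell cannot be told apart.

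**Figure D1:**
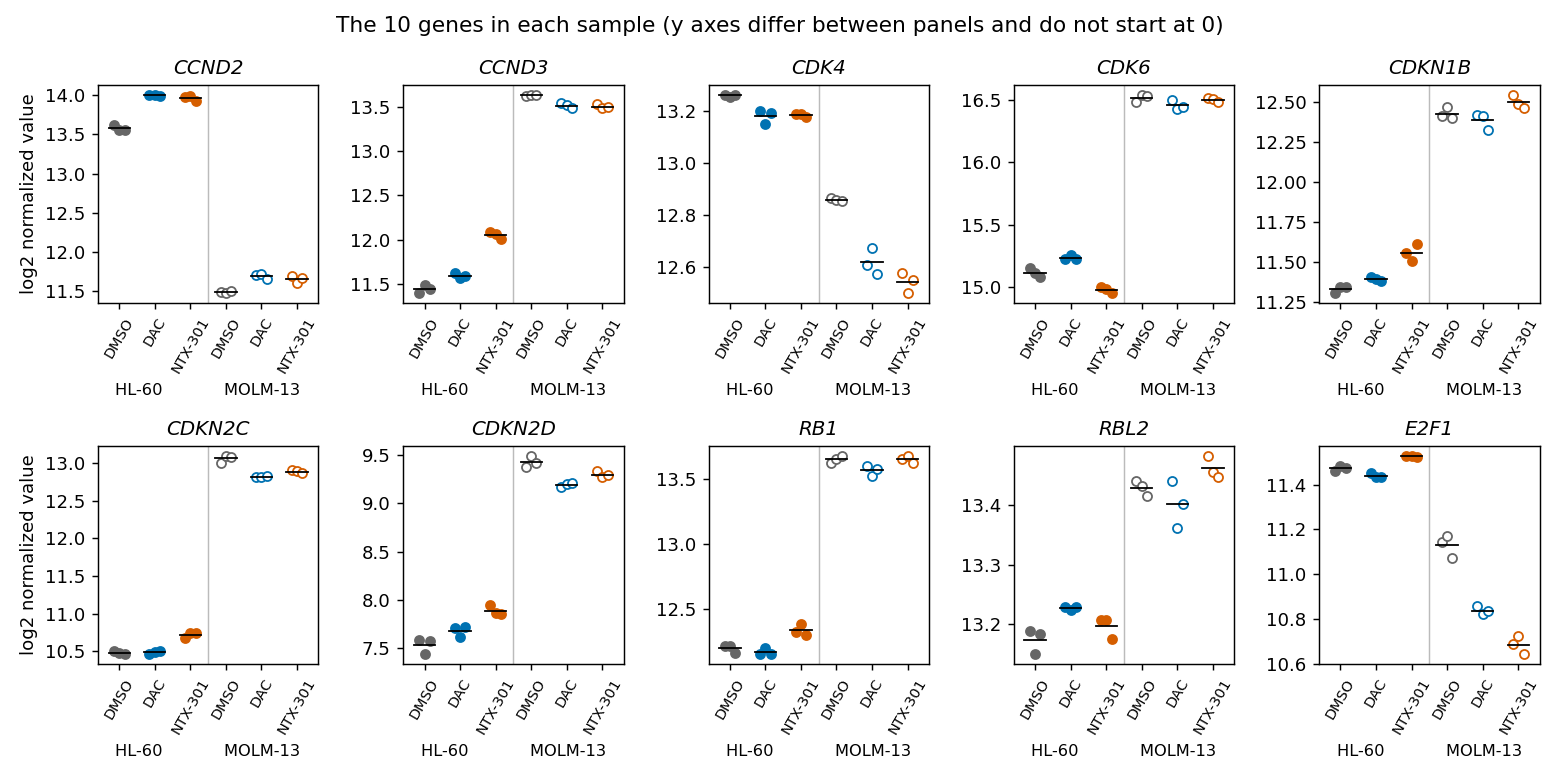
Deposited log2 values (y axis, a separate range per panel that does not start at 0) of the 10 genes in each of the 18 samples, with filled points for HL-60, open points for MOLM-13 and a bar at each group mean. CCND2 stood higher in HL-60 and CCND3 higher in MOLM-13, and E2F1 in MOLM-13 stepped down from DMSO to DAC to NTX-301.

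CCND2, which encodes cyclin D2, rose with both drugs in both lines. In HL-60 it read 13.62, 13.56 and 13.55 in DMSO, 14.00, 14.00 and 13.99 under DAC, and 13.98, 13.99 and 13.92 under NTX-301. All 6 treated samples lay above the 3 DMSO samples, while the drug groups overlapped each other. The change was 0.42 (SE 0.023, limma adjusted p 1.94e-08) with DAC and 0.39 (SE 0.023, adjusted p 2.40e-08) with NTX-301. Only 0.903% of genes moved further than CCND2 with DAC in HL-60. In MOLM-13 CCND2 went from 11.49, 11.48 and 11.51 in DMSO to 11.71, 11.72 and 11.66 with DAC and 11.69, 11.60 and 11.67 with NTX-301, again with no overlap with DMSO. The rises were smaller there, 0.20 (SE 0.030, limma adjusted p 0.000326) and 0.16 (SE 0.030, adjusted p 0.00106).

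CCND3, which encodes cyclin D3, moved in opposite directions in the lines. In HL-60 its values were 11.40, 11.49 and 11.45 in DMSO, 11.63, 11.57 and 11.59 under DAC, and 12.08, 12.06 and 12.01 under NTX-301. The 3 groups formed 3 separate steps. CCND3 rose by 0.15 under DAC (SE 0.029, limma adjusted p 0.00208) and by 0.60 under NTX-301 (SE 0.029, adjusted p 2.79e-09), a 1.52-fold rise that 0.663% of genes exceeded in size. In MOLM-13 the values were 13.62, 13.63 and 13.63 in DMSO, 13.54, 13.51 and 13.48 under DAC, and 13.52, 13.48 and 13.49 under NTX-301. Every treated sample was below every DMSO sample, by 0.11 under DAC (SE 0.023, limma adjusted p 0.00212) and by 0.13 under NTX-301 (SE 0.023, adjusted p 0.000761) on average. Highly expressed genes as a whole were lower in treated MOLM-13: the 3893 genes whose log2 values averaged 12 or more had median changes of −0.080 (DAC) and −0.098 (NTX-301). After quantile normalization, which removes that shift, the CCND3 changes in MOLM-13 were −0.021 (limma adjusted p 0.423) and −0.014 (adjusted p 0.593) and were no longer called.

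The balance of the D cyclins was compared within each sample, as CCND2 minus CCND3 on the log2 scale. Without a length for either transcript, only shifts in this difference are read. In HL-60 it was 2.13 ± 0.077 (SD, n = 3) in DMSO, 2.40 ± 0.023 under DAC and 1.92 ± 0.017 under NTX-301, so that the drugs shifted it in opposite directions. In MOLM-13 it was −2.13 ± 0.018 in DMSO, −1.82 ± 0.019 under DAC and −1.85 ± 0.030 under NTX-301, a shift towards CCND2 with either drug. No drug group overlapped its DMSO group in these 4 comparisons (two-sided exact permutation p 0.1 in each, the smallest that 3 against 3 can give).

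**Figure D2:**
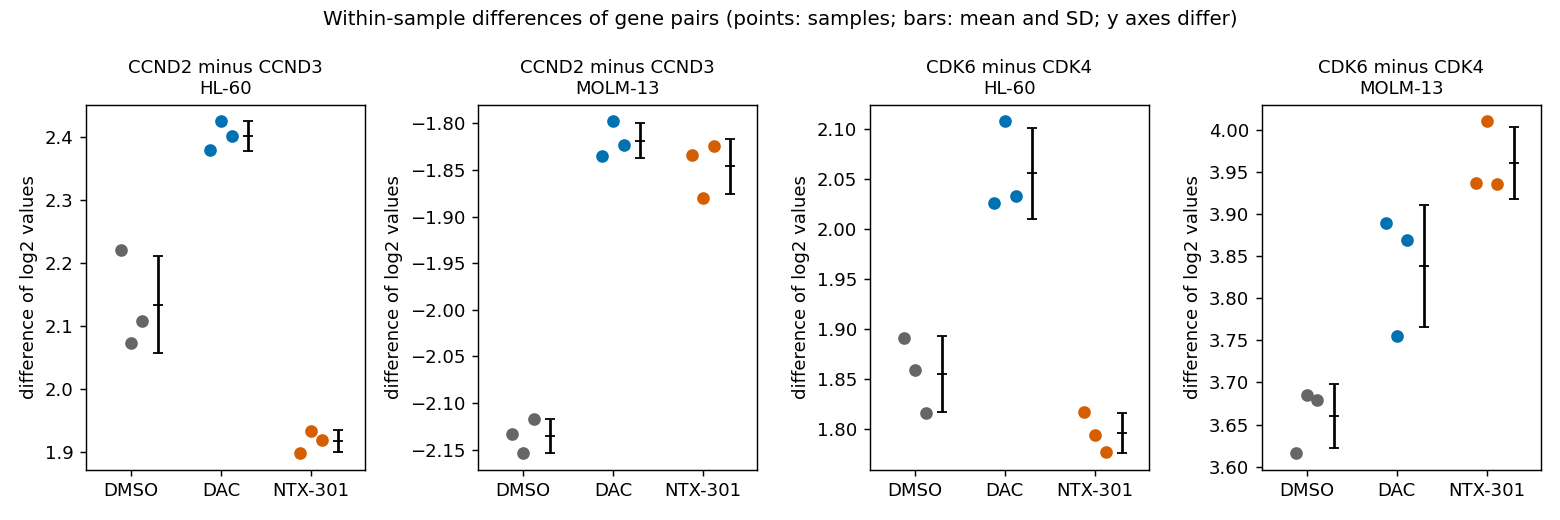
Within-sample differences of log2 values (y axis, a separate range per panel) for CCND2 minus CCND3 and for CDK6 minus CDK4, with 1 point per sample and a bar for the mean and SD. In HL-60 the cyclin difference rose with DAC to 2.40 and dropped with NTX-301 to 1.92, from 2.13 in DMSO.

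CDK4 fell in all 4 comparisons with DMSO, and the falls were larger in MOLM-13. In HL-60 CDK4 read 13.26, 13.25 and 13.26 in DMSO, 13.20, 13.15 and 13.19 under DAC, and 13.19, 13.19 and 13.17 under NTX-301. The changes of −0.080 and −0.076 (SE 0.020, limma adjusted p 0.0101 and 0.00789) had no overlap with DMSO, but after quantile normalization the change with NTX-301 was −0.039 (adjusted p 0.0962). In MOLM-13 CDK4 went from 12.86, 12.86 and 12.85 in DMSO to 12.61, 12.67 and 12.58 with DAC and 12.58, 12.50 and 12.55 with NTX-301. It fell by 0.24 under DAC (SE 0.030, limma adjusted p 8.72e-05) and by 0.32 under NTX-301 (SE 0.030, adjusted p 8.20e-06), and the drug groups overlapped. Over the alternative settings and left-out samples these changes ran from −0.28 to −0.17 and from −0.35 to −0.23.

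CDK6, the partner kinase, did not follow CDK4. In HL-60 its values were 15.15, 15.11 and 15.08 in DMSO, 15.22, 15.25 and 15.22 under DAC, and 15.00, 14.98 and 14.95 under NTX-301. DAC lay above and NTX-301 below the DMSO range, at 0.12 (SE 0.022, limma adjusted p 0.00124) and −0.14 (SE 0.022, adjusted p 0.000209). After quantile normalization the change with NTX-301 was −0.077 (limma adjusted p 0.0514). In MOLM-13 CDK6 lay between 16.43 and 16.54 in all 9 samples, and its changes of −0.061 (adjusted p 0.0989) and −0.015 (adjusted p 0.681) did not pass. Leaving out DMSO replicate 1 or DAC replicate 1 brought the change with DAC past the threshold (−0.080 and −0.082, limma adjusted p 0.0442 and 0.0316), as did centring on the sample median (−0.098, adjusted p 0.00764). The within-sample difference CDK6 minus CDK4 was 3.66 ± 0.038 in DMSO, 3.84 ± 0.072 under DAC and 3.96 ± 0.043 under NTX-301 in MOLM-13 (SD, n = 3). In HL-60 it was 1.86 ± 0.038, 2.06 ± 0.045 and 1.80 ± 0.020, and NTX-301 overlapped DMSO there (two-sided exact permutation p 0.2, against 0.1 in the other 3 comparisons).

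The INK4 inhibitors CDKN2C and CDKN2D rose with NTX-301 in HL-60 and fell with both drugs in MOLM-13. CDKN2C (p18) in HL-60 was 10.50, 10.48 and 10.47 in DMSO, 10.47, 10.49 and 10.50 under DAC, and 10.68, 10.75 and 10.74 under NTX-301. DAC overlapped DMSO (change 0.0031, limma adjusted p 0.952), and NTX-301 stood apart at 0.24 (SE 0.029, adjusted p 1.62e-05). In MOLM-13 CDKN2C went from 13.00, 13.10 and 13.08 in DMSO to 12.81, 12.81 and 12.83 with DAC and 12.90, 12.90 and 12.86 with NTX-301. It fell by 0.25 (SE 0.028, limma adjusted p 4.60e-05) and by 0.17 (SE 0.028, adjusted p 0.000316), with every treated sample below DMSO. Over the alternative settings and left-out samples the change ran from −0.28 to −0.17 (DAC) and from −0.20 to −0.076 (NTX-301). The limma adjusted p was at most 0.00046 and 0.0267.

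CDKN2D (p19) had the largest replicate SD of the 10 genes (0.078, in HL-60 with DMSO). In HL-60 it was 7.58, 7.44 and 7.57 in DMSO, 7.70, 7.61 and 7.72 under DAC, and 7.94, 7.86 and 7.85 under NTX-301. The rise with NTX-301 was 0.36 (SE 0.047, limma adjusted p 4.15e-05). The rise with DAC, 0.15 (SE 0.047, limma adjusted p 0.0351), was not called without DMSO replicate 2 (0.10, adjusted p 0.15), DAC replicate 1 (0.14, adjusted p 0.105) or DAC replicate 3 (0.13, adjusted p 0.114), nor after quantile normalization (0.097, adjusted p 0.192). In MOLM-13 CDKN2D read 9.38, 9.49 and 9.42 in DMSO, 9.17, 9.20 and 9.21 under DAC, and 9.33, 9.27 and 9.29 under NTX-301, with both drug groups below DMSO. It fell by 0.24 under DAC (SE 0.044, limma adjusted p 0.00140). The fall of 0.13 with NTX-301 (SE 0.044, limma adjusted p 0.029) was lost without DMSO replicate 2 (−0.10, adjusted p 0.122), DMSO replicate 3 (adjusted p 0.0559), NTX-301 replicate 2 (adjusted p 0.0876) or NTX-301 replicate 3 (adjusted p 0.0751).

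CDKN1B (p27) was called in 1 of the 4 comparisons with DMSO. In HL-60 it was 11.30, 11.34 and 11.34 in DMSO, 11.40, 11.39 and 11.38 under DAC, and 11.55, 11.50 and 11.61 under NTX-301. The groups formed 3 steps, of which the rise with NTX-301 passed (0.23, SE 0.029, limma adjusted p 2.77e-05) and the change with DAC did not (0.062, SE 0.029, adjusted p 0.144). In MOLM-13 the 9 values lay between 12.32 and 12.54, and the changes were −0.042 (limma adjusted p 0.363) and 0.071 (adjusted p 0.111). After quantile normalization the change with NTX-301 was 0.14 and was called (limma adjusted p 0.00512).

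RB1, the retinoblastoma protein gene, rose in HL-60 with NTX-301 and not with DAC. The HL-60 values were 12.22, 12.22 and 12.16 in DMSO, 12.16, 12.21 and 12.16 under DAC, and 12.33, 12.39 and 12.30 under NTX-301. NTX-301 lay above the other 2 groups, at 0.13 over DMSO (SE 0.027, limma adjusted p 0.00133), and DAC overlapped DMSO (−0.028, adjusted p 0.511). In MOLM-13 RB1 read 13.62, 13.65 and 13.68 in DMSO, 13.60, 13.53 and 13.57 under DAC, and 13.66, 13.67 and 13.62 under NTX-301. The fall with DAC was 0.084 on the log2 scale (SE 0.026, limma adjusted p 0.0249). It was close to the median change of highly expressed genes given above, read 0.016 after quantile normalization, and was not called without DMSO replicate 2, DMSO replicate 3 or DAC replicate 2 (adjusted p 0.0625, 0.105 and 0.0984). With NTX-301 the mean stayed at the DMSO level (0.00079, SE 0.026, limma adjusted p 0.983), but after quantile normalization it was higher by 0.11 and called (adjusted p 0.00139).

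RBL2 (p130) passed the test in none of the 4 comparisons. It lay between 13.15 and 13.23 in the HL-60 samples and between 13.36 and 13.48 in those of MOLM-13. Its HL-60 changes were 0.053 under DAC (limma adjusted p 0.0691) and 0.022 under NTX-301, where the adjusted p was 0.42. Its MOLM-13 changes were −0.028 (limma adjusted p 0.411) and 0.033 (0.31). Quantile normalization brought 3 of these past the threshold, at 0.063 and 0.064 in HL-60 (limma adjusted p 0.0252 and 0.0143) and 0.14 with NTX-301 in MOLM-13 (adjusted p 0.000555). The HL-60 change with DAC also passed with no mean-variance trend (limma adjusted p 0.0411).

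E2F1, the activator that RB1 restrains, had the largest fall of the 10 genes in MOLM-13. Its values there were 11.15, 11.17 and 11.07 in DMSO, 10.86, 10.82 and 10.84 under DAC, and 10.69, 10.72 and 10.64 under NTX-301. The 3 groups did not overlap and descended in that order. E2F1 fell by 0.29 under DAC (SE 0.035, limma adjusted p 7.36e-05) and by 0.44 under NTX-301 (SE 0.035, adjusted p 2.69e-06), to 0.817 and 0.735 of the DMSO level on the linear scale. In HL-60 the 9 values spanned 11.43 to 11.53, with DAC just below and NTX-301 just above the DMSO samples. Neither HL-60 change was called (−0.034, limma adjusted p 0.306, and 0.054, adjusted p 0.0714), although the second passed after quantile normalization (0.068, adjusted p 0.020) and with no mean-variance trend in the fit (0.054, adjusted p 0.00824).

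**Figure D3:**
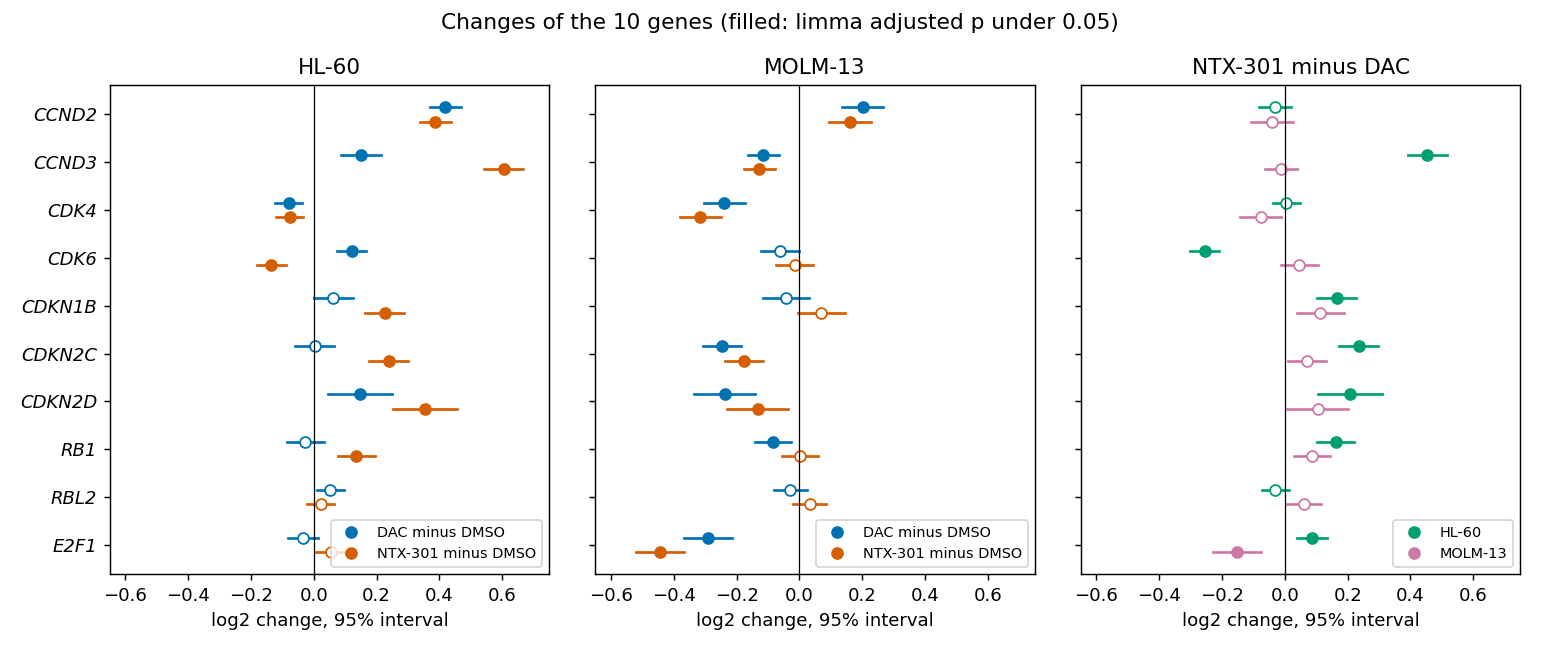
Log2 changes (x axis) with 95% intervals for the 10 genes, for each drug against DMSO in HL-60 and MOLM-13 and for NTX-301 minus DAC, with filled points where the limma adjusted p was under 0.05. CCND2 lies to the right of 0 in both lines, and the NTX-301 points of CCND3, CDKN2C and CDKN2D lie to the right in HL-60 and to the left in MOLM-13.

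The drugs were compared directly within each line. In HL-60, 6 of the 10 genes were higher with NTX-301 than with DAC and 1 was lower, against 15.4% and 15.0% of all genes. CCND3 differed most, by 0.45 (95% interval 0.39 to 0.52, limma adjusted p 8.90e-08). Among genes higher with NTX-301 it was followed by the inhibitors CDKN2C (0.24, interval 0.17 to 0.30), CDKN2D (0.21, 0.10 to 0.31) and CDKN1B (0.17, 0.10 to 0.23), then RB1 (0.16, 0.10 to 0.22) and E2F1 (0.088, 0.040 to 0.14). After centring each sample on its median, the E2F1 difference was 0.054 and was not called (limma adjusted p 0.0947). CDK6 was lower with NTX-301 by 0.26 (interval −0.30 to −0.21, limma adjusted p 1.07e-06). CCND2 (−0.031, interval −0.082 to 0.019), CDK4 (0.0039, −0.039 to 0.047) and RBL2 (−0.031, −0.073 to 0.012) did not pass, although CCND2 (−0.065, limma adjusted p 0.040) and RBL2 (−0.065, adjusted p 0.0253) did after that centring.

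In MOLM-13 the drugs differed in 1 of the 10 genes, where 3.01% of all genes were called higher and 4.41% lower. E2F1 was lower with NTX-301 by 0.15 (interval −0.23 to −0.075, limma adjusted p 0.0244). That call was lost without DAC replicate 1 (−0.14, adjusted p 0.0717), DAC replicate 3 (−0.15, adjusted p 0.057), NTX-301 replicate 1 (−0.15, adjusted p 0.0554) or NTX-301 replicate 3 (−0.13, adjusted p 0.105). The other 9 differences did not pass and ranged from −0.076 (CDK4) to 0.11 (CDKN1B). The widest of their intervals was that of CDKN2D, from 0.0082 to 0.20. CDKN1B (0.11, limma adjusted p 0.0673) and RB1 (0.085, adjusted p 0.0729) lay nearest the threshold, with no overlap between the drug groups. After quantile normalization CDKN1B, CDKN2C, RB1 and RBL2 were also called higher with NTX-301, which made 5 genes with E2F1.

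Differences in drug effect between the lines were tested in 1 limma fit of all 18 samples, as the MOLM-13 change less the HL-60 change. With DAC 8 of the 10 genes were called, all 8 with the lower change in MOLM-13. Among all genes 12.1% had the higher and 17.9% the lower change there. With NTX-301 9 were called, 8 with the lower change in MOLM-13 and CDK6 with the higher, against 22.4% and 17.6% of all genes. CCND3 differed most with NTX-301, at −0.73 (SE 0.036, limma adjusted p 5.95e-11), a size that 0.498% of genes exceeded. The differences of E2F1 and CDKN2D with NTX-301 were next, at −0.50 (SE 0.038, limma adjusted p 9.89e-09) and −0.49 (SE 0.066, adjusted p 1.03e-05). CCND2 rose in both lines but less in MOLM-13, by −0.22 with DAC and −0.23 with NTX-301 (SE 0.037, limma adjusted p 0.000195 and 7.92e-05). Over the 3535 genes averaging 12 or more, the median difference was −0.069 (DAC) and −0.060 (NTX-301). Quantile normalization ended the calls of CDK4 (−0.094, limma adjusted p 0.0517) and RBL2 (−0.0090, adjusted p 0.845) with DAC, and of CDKN1B (−0.10, adjusted p 0.0755) and RB1 (−0.056, adjusted p 0.231) with NTX-301. The RBL2 difference with DAC (−0.081, adjusted p 0.0456) was also lost in 14 of the 18 fits that left out 1 library, among them each MOLM-13 DMSO and each HL-60 DAC sample (adjusted p at most 0.127).

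In DMSO alone, the 10 genes stood at different levels in the lines. The lines came in separate tables whose normalization is not given in the sources used here, so these differences are given without a test, beside a median of 0.16 over 15517 shared genes (MOLM-13 minus HL-60, log2). CDKN2C was 2.58 higher in MOLM-13, CCND3 2.18, CDKN2D 1.90, RB1 1.45, CDK6 1.41 and CDKN1B 1.10. RBL2 stood 0.25 higher, near that median. E2F1 and CDK4 were lower in MOLM-13 (−0.35 and −0.40), and CCND2 was lowest at −2.09.

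Other genes of the same machinery were counted in lists. Of 21 listed genes of a 23-gene G1/S list, 6 rose and 3 fell with DAC and 12 rose and 5 fell with NTX-301 in HL-60, with medians of 0.024 and 0.086. In MOLM-13, 2 rose and 12 fell with DAC and 3 rose and 11 fell with NTX-301, with medians of −0.14 and −0.13. Highly expressed genes there had medians of −0.080 and −0.098. The shares of all HL-60 genes were 11.6% higher and 12.6% lower with DAC, and 18.3% and 19.2% with NTX-301, so the falls there were near those shares. For all MOLM-13 genes the shares were 15.4% and 21.2% (DAC) and 20.3% and 24.8% (NTX-301). CDKN1A (p21), which inhibits cyclin-CDK complexes, was listed for MOLM-13 alone. It went from 13.28 ± 0.033 (SD, n = 3) to 14.17 ± 0.018 with DAC and 14.34 ± 0.053 with NTX-301, rises of 0.89 and 1.07 (limma adjusted p 2.87e-08 and 3.64e-09), above any change of the 10 genes. Its difference between the drugs, 0.17, was called as well. The inhibitors CDKN2A and CDKN2B were listed for HL-60 alone, where CDKN2B rose by 0.11 with NTX-301, a call lost without NTX-301 replicate 3 (0.076, limma adjusted p 0.0532) and after quantile normalization (0.079, adjusted p 0.0711). CDKN2A was not called.

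Among the other cyclins, CCNE1, which drives CDK2 at the G1/S border, rose in HL-60 (0.087 with DAC, 0.25 with NTX-301) and fell in MOLM-13 (−0.22 and −0.18). Its rise with DAC was not called without DMSO replicate 1 or 2 or DAC replicate 2 or 3 (limma adjusted p 0.0542 to 0.0840). CCNE2 rose in HL-60 with NTX-301 (0.43) and was not called in MOLM-13. Its change with DAC in MOLM-13 passed after centring (−0.17, limma adjusted p 0.0154). It also passed without DMSO replicate 1 or DAC replicate 1 (−0.18 in each, adjusted p 0.0163 and 0.0226). CDK2 itself rose by 0.13 with NTX-301 in HL-60 and fell by 0.29 with each drug in MOLM-13. CCND1, the D cyclin of most solid tissues, moved in the directions opposite to CCND3, at −0.11 with NTX-301 in HL-60 and 0.20 (DAC) and 0.17 (NTX-301) in MOLM-13. The MOLM-13 calls were lost after quantile normalization (0.13, limma adjusted p 0.15, and 0.095, adjusted p 0.258) and without any 1 of the 3 DMSO samples (limma adjusted p 0.0547 to 0.104). The call with DAC was also lost without DAC replicate 2 (0.12, adjusted p 0.102), and that with NTX-301 without any 1 of its own 3 samples (adjusted p 0.0655 to 0.134). The other E2F genes did not move as one group. E2F2 rose by 0.21 and 0.76, E2F7 by 0.29 and 0.50 and E2F8 by 0.21 and 0.54 with DAC and NTX-301 in HL-60, and E2F2 (−0.20, −0.16) and E2F8 (−0.22, −0.13) fell in MOLM-13. After quantile normalization the fall of E2F8 with NTX-301 there was not called (−0.088, limma adjusted p 0.0777). E2F7 was not called in MOLM-13, although its change with DAC passed after centring (−0.12, limma adjusted p 0.0115) and without DAC replicate 1 (−0.11, adjusted p 0.0238). E2F4, a repressor that pairs with p130, fell in both lines, by 0.10 and 0.14 in HL-60 and by 0.11 and 0.21 in MOLM-13. Its falls with DAC were not called after quantile normalization (−0.079 and −0.049, limma adjusted p 0.0608 and 0.149), nor the one in HL-60 without DMSO replicate 3 or DAC replicate 3 (adjusted p 0.0723 and 0.0696). E2F6 fell in HL-60 (−0.090 and −0.22) and read −0.077 and −0.12 in MOLM-13, where neither was called. The E2F6 call with DAC in HL-60 was lost without DMSO replicate 1 or 3 or DAC replicate 1 or 3 (limma adjusted p 0.0545 to 0.0793). With NTX-301 in MOLM-13, E2F6 passed after centring (−0.15, limma adjusted p 0.0148), with a filter on a mean of at least 3 (adjusted p 0.0395) and with only the groups compared (adjusted p 0.0361). It also passed there without DMSO replicate 1, DAC replicate 1 or DAC replicate 2 (adjusted p 0.0168 to 0.0462). E2F5 was called lower in MOLM-13 alone (−0.18 and −0.14), with both calls lost on leaving out single samples, DMSO replicate 2 among them (adjusted p 0.0573 and 0.111). On the deposited values E2F3 was called only with NTX-301 in HL-60 (0.084), and not without DMSO replicate 2 or NTX-301 replicate 2. Centring ended that call too (0.052, limma adjusted p 0.101). In MOLM-13, quantile normalization made E2F3 called higher under either drug, by 0.11 (DAC) and 0.087 (NTX-301), with limma adjusted p of 0.00158 and 0.00539. RBL1 (p107), the third pocket protein, rose by 0.074 with NTX-301 in HL-60 (0.043 after centring, limma adjusted p 0.137) and fell by 0.24 and 0.32 in MOLM-13.

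E2F target genes, mostly of DNA replication, were counted in a list of 20 that shares CCNE1, CCNE2 and E2F2 with the list above. In HL-60, 7 rose and 2 fell with DAC, and 13 rose and 0 fell with NTX-301. In MOLM-13, 17 fell with DAC and 18 with NTX-301, and 0 rose. The HL-60 medians were 0.041 and 0.13, and those of MOLM-13 −0.29 and −0.37. Among all genes, DAC raised 11.6% and lowered 12.6% in HL-60, where NTX-301 raised 18.3% and lowered 19.2%. The shares of all genes in MOLM-13 were 15.4% higher and 21.2% lower with DAC, and 20.3% and 24.8% with NTX-301. MCM2, a subunit of the replicative helicase, fell by 0.37 and 0.48 in MOLM-13 (limma adjusted p 4.74e-07 and 8.03e-08). RRM2, a subunit of the enzyme that makes deoxynucleotides, rose by 0.23 and 0.34 in HL-60 (adjusted p 1.33e-06 and 1.05e-08). The differences between the lines were called for all 20 genes with each drug, all more negative in MOLM-13, as were 17.9% (DAC) and 22.4% (NTX-301) of all genes.

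Genes that degrade p27 and D cyclins were counted in a list of 12. In MOLM-13 8 fell and 0 rose with each drug, where 21.2% (DAC) and 24.8% (NTX-301) of all genes fell. The list's medians there, −0.095 and −0.12, lay close to those of highly expressed genes (−0.080 and −0.098). The genes that fell included SKP2 (−0.28 and −0.34) and CKS1B (−0.36 and −0.46), which together target p27 for destruction. In HL-60 1 rose and 4 fell with DAC and 3 rose and 2 fell with NTX-301, with CKS1B up by 0.19 (limma adjusted p 0.00454). The shares of all HL-60 genes were 11.6% higher and 12.6% lower with DAC, and 18.3% and 19.2% with NTX-301. Of 7 genes in a MuvB and DREAM list, 5 fell and 0 rose in MOLM-13 with each drug, and 2 rose with DAC and 4 with NTX-301 in HL-60. The shares of all genes were 21.2% and 24.8% lower in MOLM-13 and 11.6% and 18.3% higher in HL-60 (DAC, NTX-301). The lowest adjusted p in the list belonged to FOXM1 in HL-60 (0.14 and 0.35) and to MYBL2 in MOLM-13 (−0.28 and −0.33), where LIN9 fell by 0.26 and 0.33. Of 12 upstream regulators, 3 rose and 1 fell with DAC and 2 rose and 2 fell with NTX-301 in HL-60, and 2 rose and 4 fell with each drug in MOLM-13. The NTX-301 shares in HL-60 were near the 18.3% and 19.2% of all genes. In MOLM-13 the shares of all genes were 15.4% (DAC) and 20.3% (NTX-301) higher, near those of the list, and 21.2% and 24.8% lower. STAT5A, which can induce D cyclins downstream of cytokine receptors, rose in HL-60 by 0.43 and 0.67 (limma adjusted p 4.27e-06 and 2.18e-08). It rose with DAC in MOLM-13 as well (0.12, limma adjusted p 0.00336), and its change with NTX-301 there, 0.039, was not called. MYC fell with NTX-301 in both lines, by 0.25 in HL-60 and by 0.15 in MOLM-13, where quantile normalization left −0.021 (limma adjusted p 0.626). It fell with DAC in MOLM-13 as well (−0.13, limma adjusted p 0.00369), with −0.027 after quantile normalization (adjusted p 0.544). The MYC change with DAC in HL-60 was not called. It passed after centring (−0.053, limma adjusted p 0.0432), with a replicate block (adjusted p 0.0467) and without DMSO replicate 2 (−0.074, adjusted p 0.021).

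**Figure D4:**
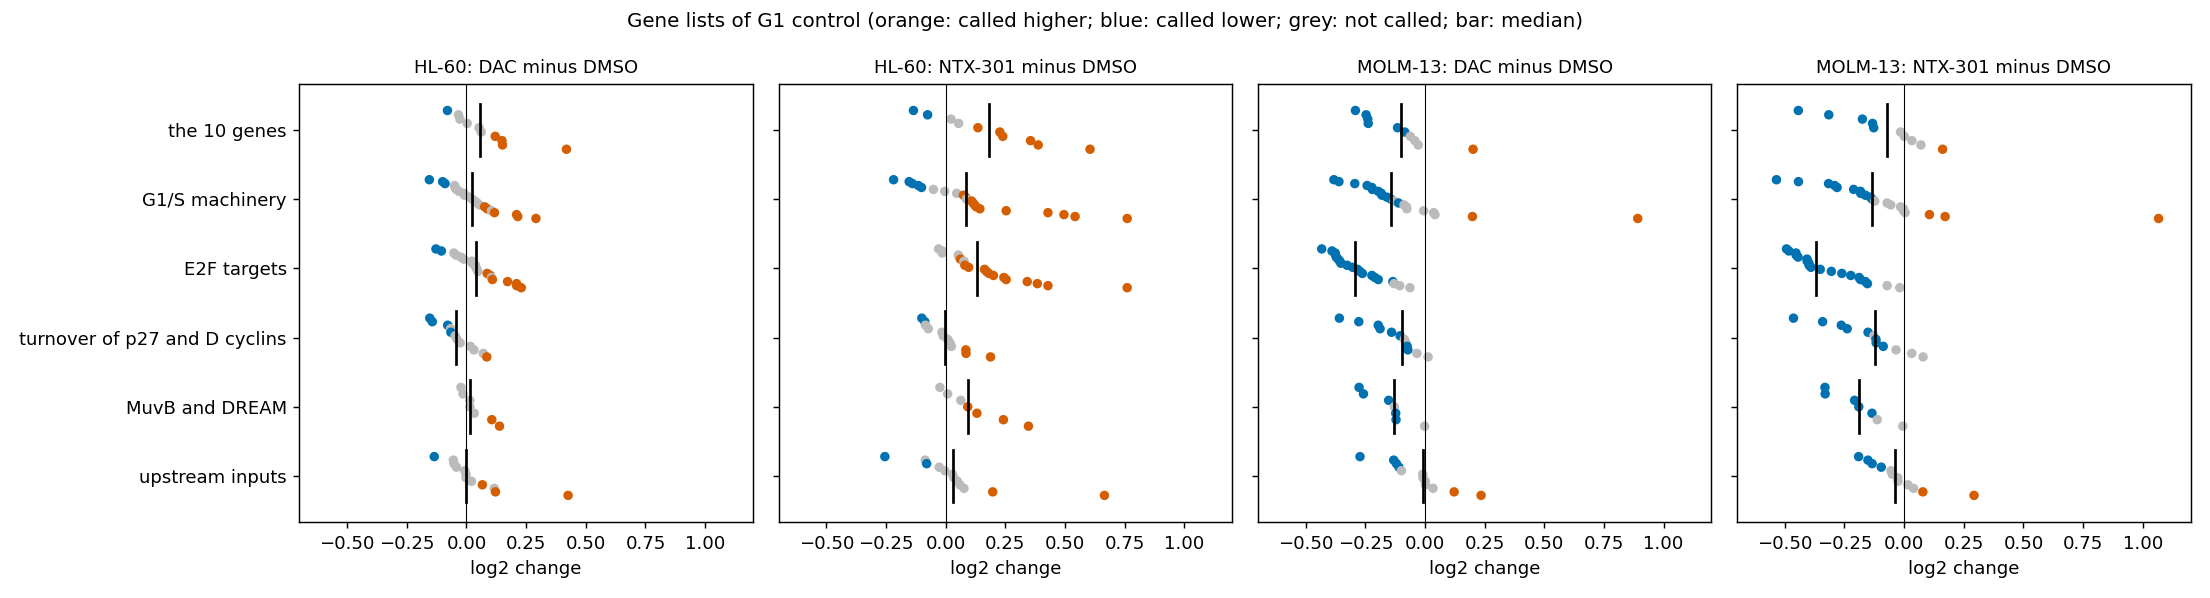
Log2 changes (x axis) of the 10 genes and of 5 lists of related genes in the 4 comparisons with DMSO, with 1 point per gene and a bar at the list's median. E2F targets sit mostly right of 0 in HL-60 with NTX-301 (13 called higher) and left of 0 in MOLM-13 (17 and 18 called lower), and the point farthest right in MOLM-13 is CDKN1A.

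For each of the 10 genes, the most similar profiles were sought among 15473 other genes by Pearson's r over the 18 samples, after subtracting each line's DMSO mean. The samples of a group share their treatment, so r describes shared group differences. CCND3 was closest to E2F2 (r = 0.995) and FAM111A (0.983). E2F1 was closest to MCM2 (0.986) and VRK1 (0.984). CDKN2C was closest to WDR76 (0.986) and NDC80 (0.972), and CDKN2D to SPC25 (0.972) and SEL1L3 (0.969), where NDC80 and SPC25 are kinetochore subunits. CCND2 was closest to PKD2 (0.980) and AAK1 (0.971), which rose in all 4 comparisons as it did, by 0.21 to 0.64. CDK4 was close to HNRNPAB (0.981). For RB1 (TCEANC2, 0.935), CDKN1B (ZKSCAN2, 0.951), CDK6 (EIF1, 0.929) and RBL2 (FBXO11, 0.844) the best match was looser.

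The summed linear level of the 8 myeloid markers also moved with treatment. As a share of the linear sum it was 0.894% to 0.950% in HL-60 DMSO samples, 0.891% to 0.899% under DAC and 0.707% to 0.720% under NTX-301. In MOLM-13 it was 0.428% to 0.441%, 0.567% to 0.602% and 0.457% to 0.490%. This summed share does not show a stage of maturation. The part of these markers, or of maturation, in the changes of the 10 genes was not tested.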

How the data were processed

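The authors deposited 1 normalized log2 value per gene and sample, per the file headers and the values. Per the submitters' processing notes, FastQC, Trimmomatic 0.38, HISAT2, StringTie and the build hg19 were used. The normalization is not given in the sources used here. Libraries came from a stranded total RNA kit. Read depth is unknown, so precision rests on the spread between wells plated in triplicate, which may be technical. limma 3.58.1 in R 4.3.3 (lmFit, eBayes with trend, two-sided) was fitted per line to 9 samples (6 residual degrees of freedom), and to 18 samples (12) for differences between lines. A gene was tested where its linear value reached 1 in 3 or more samples: 17046 in HL-60, 17475 in MOLM-13 and 15474 in both. Benjamini-Hochberg adjustment ran over all of these, with a threshold of 0.05. Both drugs share the DMSO samples. Steps were tested on simulated data. The 10 genes and all lists were chosen with earlier results of these data known. Named were these 10, 13 fixed G1/S genes, MYC and DNMT1, the 2 genes of lowest adjusted p per list and drug, and the 2 nearest profiles, of which the text gives a selection, with E2F4, E2F5 and E2F6 added after their values were seen, and some genes that this rule names are not reported here. Alternatives were centring, quantile normalization, a pseudocount of 1, other filters, no trend, only the groups compared, a replicate block, a minimum change of 0.25 and leaving out each sample. Promoters came from RefSeq (GRCh38.p14) and were matched by symbol.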

Additional observations from a re-analysis of the deposited data

Results flagged for a closer look

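For 17 results the effect of a drug differed between the lines by limma's test of the difference itself (change in MOLM-13 minus change in HL-60, log2, adjusted p over 15474 genes). With DAC the differences were −0.39 for CDKN2D (adjusted p 0.000213), −0.27 for CCND3 (2.01e-05), −0.26 for E2F1 (4.92e-05), −0.25 for CDKN2C (5.44e-05), −0.22 for CCND2 (0.000195), −0.18 for CDK6 (0.000532), −0.16 for CDK4 (0.00171) and −0.081 for RBL2 (0.0456). With NTX-301 they were −0.73 for CCND3 (5.95e-11), −0.50 for E2F1 (9.89e-09), −0.49 for CDKN2D (1.03e-05), −0.41 for CDKN2C (7.63e-08), −0.24 for CDK4 (2.04e-05), −0.23 for CCND2 (7.92e-05), −0.16 for CDKN1B (0.00960), −0.13 for RB1 (0.00819) and 0.12 for CDK6 (0.00926). Dose and line cannot be told apart in any of these.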

How the results depend on the processing

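Of 80 results on the 10 genes, 51 were called and 46 of these kept their call and sign in every fit that left out 1 sample. A minimum log2 change of 0.25 left, of the 10 genes, 1, 3 and 2 for HL-60 (DAC, NTX-301, NTX-301 minus DAC), 1, 2 and 0 for MOLM-13, and 3 and 4 for the differences between lines (DAC, NTX-301). Of all genes it left 526, 1250 and 710 for HL-60, 1538, 2320 and 168 for MOLM-13, and 1545 and 2431 between lines. For NTX-301 minus DAC in MOLM-13, 1 of the 10 genes was called, against 2 after centring, 2 with a filter on a mean of at least 3 and 5 after quantile normalization, and 0 to 1 on leaving out 1 sample, with 462 to 1322 of all genes. Leaving out 1 sample gave 4 to 5, 8 and 7 of the 10 genes for HL-60, 6 to 8 and 5 to 6 for the drugs against DMSO in MOLM-13, and 7 to 8 and 9 between lines.

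Same-numbered wells did not deviate together (r from −0.16 to 0.12 over 18 pairs, the own number was the closest in 5 of them), so no pairing by number was seen. With so few wells per group, this cannot show that same-numbered wells were handled apart. With a replicate block, 817 of all genes in place of 1297 were called for NTX-301 minus DAC in MOLM-13, and RB1 with DAC in MOLM-13 (adjusted p 0.0539) and the RBL2 difference with DAC between lines (adjusted p 0.0562) were not called. It changed no other call of the 10 genes.

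Median centring of the samples moved the split of higher and lower calls, for NTX-301 in HL-60 from 3115 and 3265 to 2270 and 6053, for NTX-301 minus DAC there from 2622 and 2563 to 1746 and 5770, in MOLM-13 with DAC from 2689 and 3705 to 1960 and 5731 and with NTX-301 from 3543 and 4337 to 2735 and 5760, and for DAC between lines from 1871 and 2767 to 1346 and 4548. Quantile normalization ended 9 calls of the 10 genes with the sign kept and added 11. It also ended the call of RB1 with DAC in MOLM-13, where the sign turned (0.016, limma adjusted p 0.599).

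The sign of 22 changes turned under some setting, none over 0.085 in size and 1 of them called (RB1 with DAC in MOLM-13). After centring, these read −0.0093 (RBL2, NTX-301, HL-60), −0.030 (CDK4, NTX-301 minus DAC, HL-60), −0.00028 (CDKN1C, DAC, MOLM-13), and −0.029 and −0.026 (RB1 and E2F7, NTX-301, MOLM-13). After quantile normalization they read 0.0086, 0.0026 and −0.022 (CCND1, RBL1 and E2F5, DAC, HL-60), −0.013 (E2F5, NTX-301, HL-60), 0.0011 (RBL2, NTX-301 minus DAC, HL-60), 0.016, 0.016, 0.016 and 0.054 (CDK6, CDKN1B, RB1 and RBL2, DAC, MOLM-13), 0.028, 0.0011 and 0.087 (CDK6, CCNE2 and E2F3, NTX-301, MOLM-13), 0.0072 (CCND3, NTX-301 minus DAC, MOLM-13) and 0.023 (RB1, DAC, between lines). Leaving out 1 sample gave −0.0047 to 0.012, −0.027 to 0.020, −0.10 to 0.030 and −0.018 to 0.0057 (CDKN2C, CCND1, CDKN2A and RBL1, DAC, HL-60), −0.012 to 0.014 (CDK4, NTX-301 minus DAC, HL-60), −0.014 to 0.016, −0.0099 to 0.012 and −0.0091 to 0.025 (RB1, E2F3 and E2F7, NTX-301, MOLM-13), −0.028 to 0.0010 (CCND3, NTX-301 minus DAC, MOLM-13) and −0.00050 to 0.022 (RBL2, NTX-301, between lines). Among the turned values, that of E2F3 after quantile normalization was called (limma adjusted p 0.00539). The cause of these turns was not tested.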
